A study of Homo sapiens with 62 samples.

Results

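The HOX cluster genes were taken as the protein-coding genes whose name is HOXA, HOXB, HOXC or HOXD followed by a number. This rule, which uses no measured value, found 39 genes among 19951 protein-coding genes in the tables of 4 lines and the same number among 20312 in the tables of A2780. HOX proteins are homeodomain transcription factors that give cells their position along the body axis. They lie in 4 clusters in which gene order follows the order of use, from low-numbered anterior genes to high-numbered posterior ones. Adult cells and tumours often keep the HOX pattern of the tissue they came from. Retinoic acid and caudal (CDX) factors switch the clusters on, Polycomb complexes keep them silent, trithorax and MLL complexes keep them active, and PBX, MEIS and PKNOX proteins bind DNA together with HOX proteins. The HOXA cluster (11 genes, chr7:27092993-27200106) lies on 7p, HOXB (10 genes, chr17:48528526-48729178) on 17q, HOXC (9 genes, chr12:53938765-54056030) on 12q and HOXD (9 genes, chr2:176092891-176190907) on 2q, in GRCh38. No other cluster lies on an arm that the study removed.

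RNA sequencing covered 62 libraries in 16 groups from 5 human cell lines, and each library gave 15042068 to 30984036 counts. Per the labels the study removed extra copies of chromosome arms from lines that had gained them, with versions of a method named ReDACT (NS, TR or CO), and each loss clone grew from a single cell. A2058, a melanoma line with gains of 1q, 7p and 8q, had 4 libraries of unmodified cells (WT), 4 of 1q-loss from 2 clones, 6 of 7p-loss from 3 clones and 4 of 8q-loss from 2 clones, all made with ReDACT-CO. HCT116, a colorectal line with a gain of 8q, had 2 WT libraries and 4 of 8q-loss from 2 ReDACT-CO clones. AGS, a gastric line with a gain of 1q, had 1 WT library, 2 TK+ libraries (clones that carry the TK cassette and keep the gain) and 5 of 1q-loss from 5 clones, 4 of them made with ReDACT-NS and clone 11 with ReDACT-CO. A2780, an ovarian line with a gain of 1q, had 2 WT, 2 TK+ and 6 1q-loss libraries from 3 ReDACT-NS clones. MCF10A, a breast epithelial line whose 1q-loss clones lost an extra 1q per the labels, had 2 WT libraries and 8 of 1q-loss from 4 clones (clones 1 to 3 ReDACT-TR, clone 4 ReDACT-CO), and as many again with hRASV12, an activated HRAS, named hRas below.

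The labels call the MCF10A libraries biological replicates and do not say whether libraries of the other lines came from separate cultures, so p-values there measure the spread between libraries, which may be technical. Libraries of 1 clone are not independent. In bulk RNA, fewer cells of a type and less RNA per cell cannot be told apart. The labelled tissue was checked against defining markers, counted as detected at 10 or more counts in every library that keeps the gain. All 8 melanocyte markers were detected in A2058 and all 6 basal breast markers in MCF10A. In HCT116 2 of 7 intestinal markers were detected, CDX2 (median 40.5 CPM, counts scaled to a common library size) and EPCAM, and VIL1 was at 0. HCT116 also had 4 of 6 basal breast markers. AGS had 2 of 7 gastric but 5 of 7 intestinal markers, with CDX2 at a median of 59.9 CPM and VIL1 at 226.2 CPM. A2780 had 1 of 5 ovarian and Muellerian markers, FOXL2 at a median of 26.4 CPM, beside 2 of 7 intestinal and 2 of 8 melanocyte markers. HOX genes overlap each other: 22 of the 39 overlap another HOX gene on the same strand and 25 a gene on the opposite strand, and the strand setting of the counting is not given in the sources used here, so reads of such pairs cannot be fully told apart.

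Promoter sequence was available from RefSeq (GRCh38.p14) for 20 of the 39 genes, as the 250 bases before the start. Of these windows 85.0% (17 of 20) held a CCAAT box (CCAAT, both strands), against 33.0% of 27303 promoters of the same length. The TATA box (TATAAA) was in 4 of 20 against 11.1%, the HOX-PBX motif (TGATNNAT) in 3 of 20 against 6.69%, and the retinoic acid response element, taken as 2 copies of AGGTCA on 1 strand with 5 bases between them, in 0 of 20 against 1 of 27303. The median number of CpG dinucleotides in a window was 20.5 against 11. HOXC4 and HOXC5 share 1 window, and a match is a description of letters, not a binding site. The windows below overlap no annotated exon. HOXA6 and HOXA9 stand for the cluster on 7p, HOXD3 and HOXD11 are genes whose RNA changed or differed between clones, and HOXD13 lies at the posterior end of its cluster. Those of HOXA6, HOXA9, HOXD3 and HOXD11 lie inside the span GENCODE gives the gene, since longer transcripts start further upstream. They are written 5′ to 3′ on the gene's strand, with motif matches in capitals (ATTGG is CCAAT on the other strand, ATCAATCA the HOX-PBX motif on the other strand, and TTTATAAA the TATA motif on both strands).
HOXA6, chr7:27147775-27148024, minus strand: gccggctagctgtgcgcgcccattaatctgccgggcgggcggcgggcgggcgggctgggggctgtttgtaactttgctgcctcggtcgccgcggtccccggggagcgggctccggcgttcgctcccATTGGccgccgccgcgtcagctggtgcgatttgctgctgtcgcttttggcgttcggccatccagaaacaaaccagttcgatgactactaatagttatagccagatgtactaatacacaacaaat
HOXA9, chr7:27165538-27165787, minus strand: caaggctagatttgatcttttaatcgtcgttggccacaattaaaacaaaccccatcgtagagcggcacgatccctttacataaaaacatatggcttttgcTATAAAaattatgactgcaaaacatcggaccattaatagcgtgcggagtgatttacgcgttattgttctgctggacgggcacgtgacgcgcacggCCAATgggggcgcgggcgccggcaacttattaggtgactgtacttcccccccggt
HOXD3, chr2:176157057-176157306, plus strand: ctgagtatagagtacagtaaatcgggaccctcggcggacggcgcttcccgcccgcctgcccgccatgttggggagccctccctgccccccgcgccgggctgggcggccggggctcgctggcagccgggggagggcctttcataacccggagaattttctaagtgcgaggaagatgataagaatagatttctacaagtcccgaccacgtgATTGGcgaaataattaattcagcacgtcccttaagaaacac
HOXD11, chr2:176107030-176107279, plus strand: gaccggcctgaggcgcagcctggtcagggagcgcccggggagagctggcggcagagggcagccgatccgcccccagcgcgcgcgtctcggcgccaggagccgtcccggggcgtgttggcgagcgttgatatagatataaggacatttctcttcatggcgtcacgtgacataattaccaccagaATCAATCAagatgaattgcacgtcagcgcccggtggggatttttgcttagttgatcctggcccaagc
HOXD13, chr2:176092471-176092720, plus strand: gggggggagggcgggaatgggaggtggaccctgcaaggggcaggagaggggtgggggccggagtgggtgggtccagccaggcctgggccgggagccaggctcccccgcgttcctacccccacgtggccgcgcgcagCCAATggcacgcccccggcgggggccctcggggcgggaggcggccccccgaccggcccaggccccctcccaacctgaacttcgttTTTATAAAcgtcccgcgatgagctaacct

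The first question was which HOX genes each line expresses before an arm is lost. A gene was counted as detected at 10 or more counts in every library of the line that keeps the gain (without hRas), and as off at 3 or fewer in each. A2058 had 32 of the 39 genes detected and 1 off, HCT116 25 and 10, MCF10A 20 and 14, A2780 15 and 16, and AGS 12 and 23. By the same measure 61.3% of protein-coding genes were detected in A2058, 60.2% in HCT116, 61.4% in MCF10A, 58% in A2780 and 58.4% in AGS. The lines thus shared a similar share of detected genes in general, while their HOX counts ranged from 12 to 32. The lines also differ in how many such libraries they have (1 to 4), and the differences between lines are a description with no test.

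By cluster, HOXB was on in most of its length in 4 lines, with 9 of 10 genes detected in A2058 and in A2780 and 8 of 10 in HCT116 and in AGS, and MCF10A had 5. HOXA was detected at 10 of 11 genes in HCT116, 9 in A2058 and 9 in MCF10A, but at 0 in A2780 and AGS, where all 11 were off in AGS and 6 in A2780. HOXC gave 8 of 9 genes in A2058, 6 in HCT116, MCF10A and A2780 and 4 in AGS. HOXD was largely silent outside A2058, which had 6 of 9 genes detected: HCT116 had 1, HOXD8, at 182 and 98 counts, MCF10A, A2780 and AGS had none, and all 9 were off in MCF10A and 8 in AGS. The map of HOX levels shows these blocks.

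**Figure D1:**
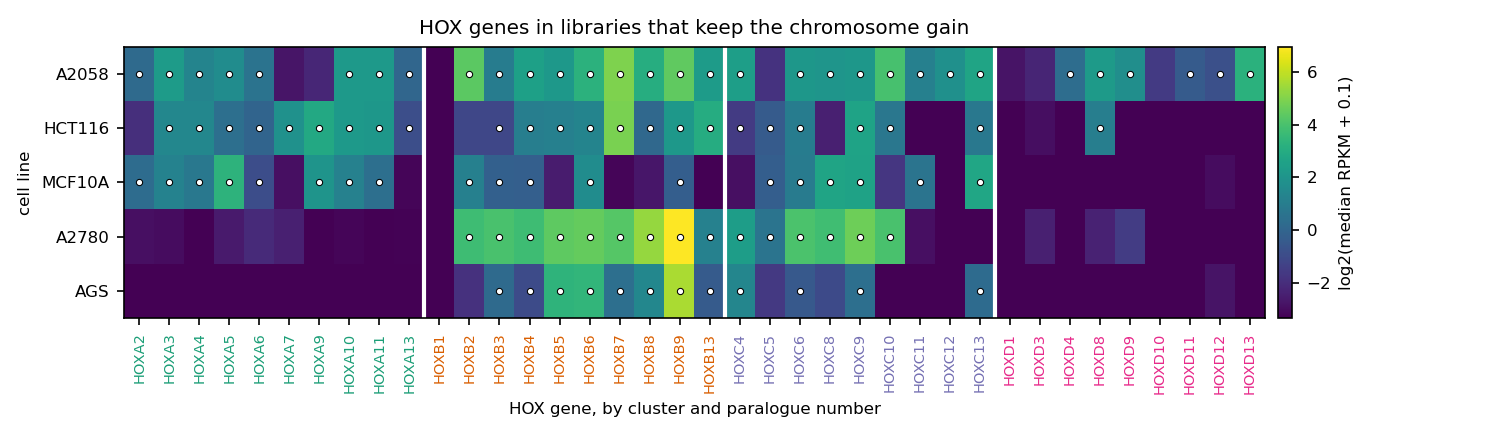
Each cell gives the median level (RPKM, which is CPM per kilobase of gene length, colour scale) of a HOX gene (horizontal axis, ordered by cluster and number) in the libraries of a line that keep the gain (vertical axis), and white dots mark genes with at least 10 counts in every such library. HOXB is filled in most lines, HOXD mainly in A2058, and HOXA holds no dot in A2780 and AGS. Only genes reported by name are drawn. A2780 levels use the gene lengths of the A2780 files, which differ from those of the other lines for some genes.

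The genes detected in all 5 lines were 6: HOXB3, HOXB4, HOXB6, HOXB9, HOXC6 and HOXC9. A further 6 were detected in 4 lines, 11 in 3, 5 in 2 and 7 in 1, and 4 in none (HOXB1, HOXD1, HOXD3 and HOXD10). HOXB1, the hindbrain gene at the anterior end of its cluster, was off in every line, with at most 2 counts in a library. The genes detected in 1 line were HOXA7, in HCT116, and HOXC12, HOXD4, HOXD9, HOXD11, HOXD12 and HOXD13, in A2058. Members of the posterior end at number 13 differed by line: HOXB13, known from prostate and distal colon, had a median RPKM of 8.19 in HCT116, 4.86 in A2058, 2.18 in A2780 and 0.665 in AGS, and 0 in MCF10A. The A2780 libraries were split, with WT at 0.612 and 1.08 RPKM and TK+ at 3.28 and 3.57, and the lowest of them lay within the AGS range of 0.591 to 0.725.

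Levels between genes are compared per length, as RPKM. In A2058 the highest medians were HOXB7 at 31.2, HOXB9 at 21.5, HOXB2 at 20.2 and HOXC10 at 15.4. The range of HOXB9 over the 4 libraries overlapped those of HOXB7 and HOXB2, so these neighbours in the order do not differ beyond their spread. In A2780 HOXB9 stood at a median of 122.7, above HOXB8 at 39.7, HOXC9 at 25.4, HOXB6 at 22.5 and HOXB5 at 20.9, and the range of HOXB6 overlapped those of HOXC9 and HOXB5. The A2780 files give some genes another length, such as HOXB7 with 3929 bases against 1528 in the other lines. HOXB7 had a median of 72.7 CPM but 18.5 RPKM in A2780, so the order there depends on these lengths and is not fully comparable between lines. HOXB9, a trunk gene, also led in AGS, at 49.0 against 10.7 for HOXB6 and 9.997 for HOXB5, whose ranges overlapped. In HCT116 HOXB7 led at 28.9, followed by HOXB13 at 8.19, HOXA9 at 7.15 and HOXC9 at 6.09. The range of HOXA9 overlapped those of HOXB13 and HOXC9, which did not overlap each other. MCF10A was led by HOXA5, a regulator of breast and lung development, at 9.70, then HOXC13, known for hair keratins, at 6.54, HOXC8 at 6.32 and HOXC9 at 5.94, whose ranges overlapped. The leading gene thus belonged to HOXB in 4 lines and to HOXA in MCF10A.

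The second question was what happened to the HOXA genes, which lie on 7p, in A2058 clones that lost the extra 7p. Their levels were on the whole a little lower, but none of the 9 tested changed by the test used: the quasi-likelihood test of edgeR with p-values adjusted over all genes tested by Benjamini-Hochberg, called at an adjusted p under 0.05. The median log2 fold change of the 9 was -0.29, a level of 81.9% of control, with 7 of 9 below 0. The other 243 tested 7p genes had a median of -0.52 (69.7% of control), and 70 of them were called lower. HOXA7 and HOXA9 did not pass the filter on low counts and had at most 11 counts in any WT library. Over all genes, 139 of 15305 were called in this comparison (0.908%), so 0 of 9 stands beside a low background share, while the 7p genes had far more calls. Among the 9, 2 had an unadjusted p under 0.05, HOXA13 among them, and DESeq2 called 0 of the 9.

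The anterior genes HOXA2 and HOXA3 act in the hindbrain and neural crest. HOXA2 was at 3.09, 2.51, 2.77 and 1.73 CPM in WT replicates 1 to 4 and at 1.18 to 5.25 (median 2.10) in the 6 7p-loss libraries. The WT libraries of HOXA3 stood at 20.4, 21.3, 22.1 and 16.1 CPM and the 7p-loss libraries at 11.5 to 28.8 (median 18.2). The ranges of both genes overlapped between groups and were wider in the loss clones than in WT.

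HOXA4 to HOXA6 belong to the middle of the cluster. HOXA4 was at 4.16, 4.76, 4.15 and 3.85 CPM in WT and at 1.90 to 10.8 (median 5.51) in 7p-loss, and HOXA5 at 5.93, 4.50, 6.09 and 3.93 against 3.31 to 10.4 (median 4.90). Both had a positive log2 fold change, 0.42 (SE 0.381) for HOXA4 and 0.27 (SE 0.321) for HOXA5, well within the spread between libraries. Without clone 2 they were at 0.09 and 0.10, and over 22 alternatives HOXA4 ran from 0.09 to 0.75 and HOXA5 from 0.06 to 0.51. HOXA6 was at 1.42, 1.99, 1.98 and 1.61 CPM in WT and 0.963 to 2.26 (median 1.41) in 7p-loss. For HOXA4 the libraries of clone 1 were at 6.62 and 6.06 CPM, those of clone 2 at 10.8 and 4.96 and those of clone 3 at 3.57 and 1.90, so the spread lay both within and between clones.

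The posterior genes HOXA10, HOXA11 and HOXA13 pattern the limb and the genital tract. HOXA10 was at 21.1, 17, 16.3 and 15.6 CPM in WT and at 8.65 to 20.1 (median 14.5) in 7p-loss. HOXA11 was at 9.38, 11.2, 10.1 and 10.7 CPM in WT and at 3.31 to 10.6 (median 7.74) in 7p-loss, a log2 fold change of -0.57 (SE 0.305). HOXA13 was at 3.19, 5.32, 6.41 and 4.27 CPM in WT and at 2.65 to 4.21 (median 3.14) in 7p-loss, also -0.57 (SE 0.216, edgeR adjusted p = 0.293). The groups of all 3 overlapped. Without clone 1 HOXA10 was at -0.03 and HOXA11 at -0.25, and without clone 3 they were at -0.59 and -0.88, with no call.

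**Figure D2:**
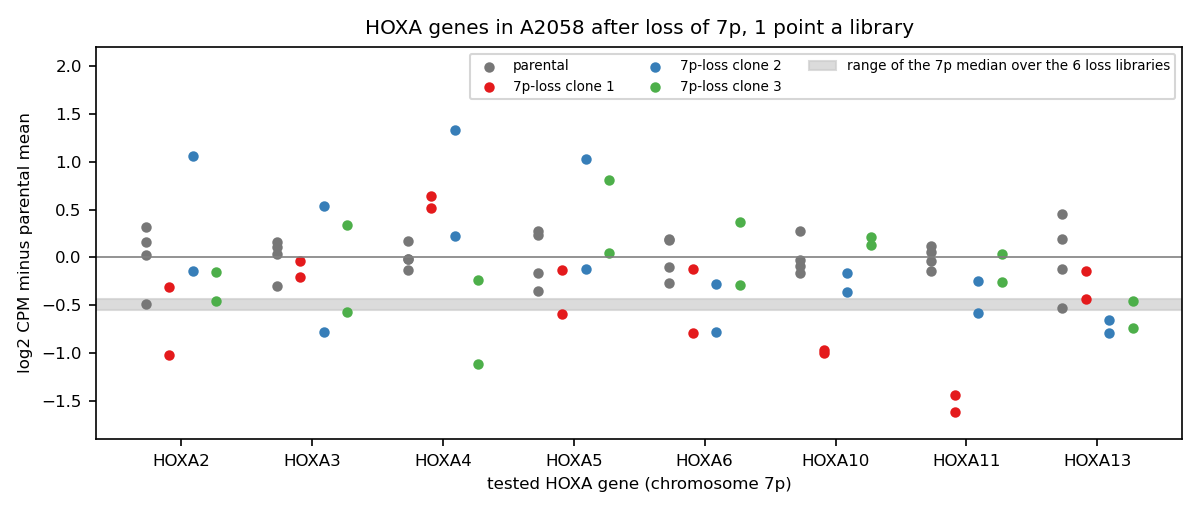
Points give log2 CPM minus the mean of the 4 WT libraries (vertical axis) for tested HOXA genes reported by name (horizontal axis), 1 point a library, with WT (parental) and the 3 7p-loss clones in separate colours and a grey band for the range of the 7p median over the 6 loss libraries. HOXA4 and HOXA5 scatter above and below 0, and clone 1 lies lowest for HOXA10 and HOXA11.

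A test against the shift of the arm itself asked whether a gene departed from the median of -0.52 of the other 7p genes. Of 252 tested 7p genes 10 did (3.97%), and 0 of the 9 HOXA genes did by edgeR (2 at an unadjusted p under 0.05, HOXA4 at 0.94 and HOXA5 at 0.79 above the arm, each with an adjusted p of 0.211; DESeq2 was not run for this test). Leaving out clone 1 moved the median of the 9 genes to -0.03, and HOXA5 was then called against the arm, and leaving out clone 3 did so for HOXA4. Per library the median of the 9 genes ran from -0.15 to -0.44 (SD 0.13 over 6 libraries), below the 4 WT libraries at -0.13 to 0.16, while the shift of 7p per library ran from -0.44 to -0.55. In each 7p-loss library the HOXA median lay between that of the WT libraries and the shift of 7p, a description with no test. The HOXA median ran from -0.25 to 0.33 in the 8q-loss libraries and from -0.05 to 0.58 in 1q-loss. The lowest of these, 8q-loss clone 2 replicate 2, lay within the 7p-loss range. The 15 tested genes within 2 Mb on either side had a median of -0.28, and 2 of them were called lower, CYCS at -0.59 and CBX3 at -0.40. Of the RNAs transcribed from within the cluster, HOTAIRM1 was at -0.44, HOXA-AS2 at -0.36, HOXA-AS3 at 0.02 and HOXA11-AS at -0.60, and none was called.

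Outside 7p, 1 HOX gene changed in the 7p-loss clones. In all 34 of the 39 HOX genes were tested, 11 had an unadjusted p under 0.05 (13% of all genes had) and 1 was called higher, where 0.105% of all genes were. HOXB7, a growth-promoting HOX gene studied in melanoma, was at 46.5, 51.0, 48.6 and 46.7 CPM in WT and at 57.2 to 66.9 (median 61.4) in 7p-loss. That was 48.2 ± 2.10 (SD, n = 4) against 61.5 ± 3.32 (SD, n = 6), a log2 fold change of 0.35 (SE 0.067, edgeR adjusted p = 0.0368), and the groups did not overlap. The call was lost in 15 of 22 alternatives, among them each fit without 1 WT library and the fits without clone 2 or clone 3, with adjusted p from 2.98e-05 to 0.584, and its size stayed between 0.32 and 0.38. Across the 9 tested HOXB genes the median was 0.40 and 8 lay above 0. HOXB2 had 0.52 (adjusted p = 0.11) and HOXB5 0.54 (adjusted p = 0.204), also with no overlap, at 53.8 to 80.5 CPM against 43.6 to 52.0 in WT for HOXB2.

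The 7p-loss clones were not alike. A test between clones, added after the data had been seen, called 29.4% of all genes and 7 of the 34 HOX genes tested: HOXA10, HOXA11, HOXB6, HOXB8, HOXB9, HOXC8 and HOXD13. Clone 1 was the lowest clone for all 7. HOXB9 had 451 and 497 counts in clone 1, 2814 and 1551 in clone 2 and 3016 and 1643 in clone 3, and 893 to 1722 in WT (edgeR adjusted p = 0.00759). HOXB8 had 204 and 183 counts in clone 1, 1188 and 663 in clone 2, 1012 and 765 in clone 3 and 266 to 489 in WT. HOXA10 had 175 and 248 counts in clone 1 against 278 to 430 in the other clones, and HOXA11 67 and 105 against 141 to 220. Clone 1 thus lay below WT for all 4 of these genes, while clones 2 and 3 lay above WT for HOXB8 and within or above it for HOXB9.

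Without clone 1 the comparison with WT called 4 HOX genes, HOXB5, HOXB6, HOXB7 and HOXB8, and 5.96% of all genes. The same-numbered libraries of these clones also deviated together (correlations 0.42 to 0.51), and with the replicate number as a block 14 HOX genes (49.5% of all genes) differed between clones. Beside HOXB the 76 genes within 2 Mb with at least 10 counts in a library had a median difference of 0.09 between clone 1 and the other clones. No test was run on these neighbours. Among them NGFR, a neural crest and nerve growth factor receptor 766 kb away, had 4854 to 10609 counts in clone 1 against 127 to 1149 in clones 2 and 3, and was singled out after its values were seen. The summed level of the 8 melanocyte markers was 1293 to 5056 CPM in 7p-loss against 2600 to 4475 in WT, and its part in these differences was not tested.

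Loss of 1q in A2058 came with changes in many HOX genes, in both directions. Of 31 tested, 12 were called, 6 higher and 6 lower, which is 38.7%. The background was wide, since 49.6% of all 15387 genes were called, 25.3% higher and 24.3% lower, so the HOX share was not above it. HOXA13, HOXB13 and HOXC13 fell, and HOXD13 was at -0.63 (adjusted p = 0.0773) with clones that differed, 378 and 402 counts in clone 1 against 157 and 247 in clone 2 (373 to 499 in WT). In the HOXA cluster HOXA5, HOXA10 and HOXA11 rose.

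**Figure D3:**
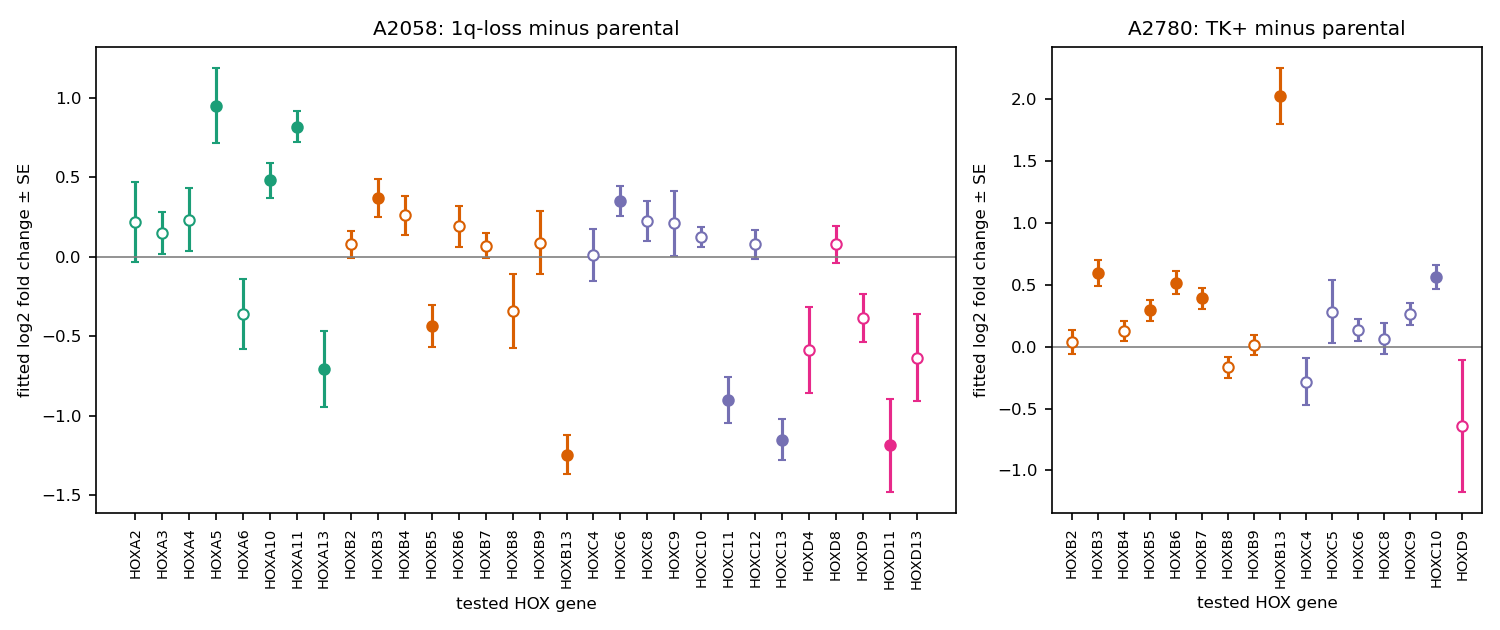
Fitted log2 fold change (vertical axis, bars are ± SE) of tested HOX genes reported by name (horizontal axis, coloured by cluster) in A2058 1q-loss and A2780 TK+, each minus WT (parental), with filled points for adjusted p under 0.05. In A2058 1q-loss HOXB13 at -1.25, HOXD11 at -1.19 and HOXC13 at -1.15 are lowest among filled points and HOXA5 at 0.95 highest, and in A2780 TK+ HOXB13 stands apart at 2.03.

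HOXB13 was at 16.9, 17, 13.9 and 16.8 CPM in WT and 6.53, 6.57, 7.91 and 6.30 in 1q-loss, a log2 fold change of -1.25 (SE 0.122, edgeR adjusted p = 1.55e-05). HOXC13 was at 16.7, 11.9, 15 and 15.7 CPM in WT and 6.72, 6.81, 6.98 and 6.15 in 1q-loss (-1.15, SE 0.129). HOXA13 was at 3.19, 5.32, 6.41 and 4.27 CPM in WT and 2.15, 3.43, 3.35 and 2.87 in 1q-loss (-0.71, SE 0.241, adjusted p = 0.0321). The first 2 had no overlap between groups. The HOXA13 groups overlapped, and its call was lost in 9 of 18 alternatives, among them those without WT replicate 2 or 3 and without either clone, with adjusted p from 0.0116 to 0.171.

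HOXC11 was at 6.39, 8.00, 6.41 and 7.44 CPM in WT and 3.38, 4.16, 3.68 and 3.92 in 1q-loss (-0.90, SE 0.145). HOXD11, whose promoter window above holds the HOX-PBX motif, was low, at 1.32, 1.47, 0.830 and 1.73 CPM against 0.572, 0.580, 0.465 and 0.717 (-1.19, SE 0.292, adjusted p = 0.00645), with the call lost in 1 of 17 alternatives, with WT replicates 3 and 4 only (adjusted p = 0.0556). Both lay lower in every 1q-loss library than in any WT library. HOXB5, a trunk and gut gene, was at 9.02, 8.65, 8.95 and 6.89 CPM in WT and 6.58, 5.75, 6.37 and 6.07 in 1q-loss (-0.44, SE 0.133), with the call lost in 6 of 18 alternatives, among them those without WT replicate 2 (adjusted p = 0.052) or either clone (0.066 and 0.0676).

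Of the genes that rose, HOXA11 was at 9.38, 11.2, 10.1 and 10.7 CPM in WT and 19.0, 18.0, 17.3 and 19.0 in 1q-loss, a log2 fold change of 0.82 (SE 0.098, edgeR adjusted p = 6.23e-05). HOXA5 was at 3.93 to 6.09 CPM in WT and 12.8, 6.52, 12 and 8.26 in 1q-loss (0.95, SE 0.237). Neither overlapped between groups. HOXA10 was at 15.6 to 21.1 CPM in WT and 26.0, 25.8, 22.7 and 23.3 in 1q-loss (0.48, SE 0.112). HOXC6 was at 13.5, 16.5, 15.9 and 14.2 CPM in WT and 19.5, 19.1, 18.8 and 19.4 in 1q-loss (0.35, SE 0.094), and HOXB3 at 13.5, 14.6, 15.5 and 10.8 against 17.8, 18.1, 16.6 and 17.7 (0.37, SE 0.12). The HOXB3 call was lost in 8 of 18 alternatives, among them those without WT replicate 1 (adjusted p = 0.0555), clone 1 (0.1) or clone 2 (0.0607), and HOXA10 was at an adjusted p of 0.0646 with the replicate number as a block. HOTAIRM1, a noncoding RNA of the HOXA cluster, also rose (0.84, SE 0.212).

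Another set of genes moved in the same 1q-loss libraries. The summed melanocyte markers were at 52.4 to 264.5 CPM in 1q-loss against 2600 to 4475 in WT, and the summed basal breast markers at 54.8 to 270.8 against 2.13 to 4.18. Their part in the HOX changes was not tested. Between the 2 1q-loss clones 6.13% of genes and 1 of 33 HOX genes (HOXD13) differed, and with the replicate number as a block 16% of genes and 4 HOX genes.

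Loss of 8q in A2058 gave no HOX call. Of 34 tested, 0 were called by edgeR and 0 by DESeq2, against 2.03% of all genes, and 4 had an unadjusted p under 0.05, where 13% of all genes had. These were HOXA11 at 0.31, HOXB2 at -0.26, HOXB9 at -0.63 and HOXD12 at 0.75, of which HOXA11 had no overlap between groups (11.4 to 14.7 CPM against 9.38 to 11.2). In HOXB 8 of the 9 tested genes lay below 0, with a median of -0.25. Between the clones 0.592% of all genes and 0 of 34 HOX genes differed by edgeR, 2 at an unadjusted p under 0.05, and 7 did with the replicate number as a block, where 19.1% of all genes did. The 3 A2058 comparisons share their WT libraries, so their HOX values are not independent of each other.

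In HCT116, loss of 8q came with lower values of several HOXB genes and of HOXD8, none of which was called. Of 28 tested HOX genes 0 were called by edgeR and 0 by DESeq2, against 0.14% of all genes (22 of 15659), and 3 had an unadjusted p under 0.05, where 5.45% of all genes had. The test had little reach here: on simulated data of this design it recovered 0% of genes changed by a factor of 2. HOXB9 had 330 and 253 counts in WT, 92 and 60 in clone 1 and 9 and 4 in clone 2, a log2 fold change of -2.83 (SE 0.86, edgeR adjusted p = 0.56). HOXB8, its neighbour, had 65 and 43 counts in WT, 8 and 4 in clone 1 and 0 and 0 in clone 2 (-4.12, SE 1.31, adjusted p = 0.583). HOXD8, the only HOXD gene detected in this line, had 182 and 98 counts in WT and 50, 58, 54 and 36 in 8q-loss (-1.55, SE 0.459, adjusted p = 0.517). For all 3 genes every 8q-loss library lay below both WT libraries, and how often this holds over all genes was not counted.

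All 9 tested HOXB genes had a log2 fold change below 0, with a median of -0.92. The groups overlapped for HOXB2, HOXB3, HOXB7 and HOXB13, and the share of all genes without overlap was not counted. HOXB7 was at 45.0 and 43.2 CPM in WT and 28.4, 43.6, 36.8 and 34.5 in 8q-loss. Of the 11 HOXA genes 10 lay above 0, with a median of 0.37. The 82 genes within 2 Mb of HOXB with at least 10 counts in a library had a median difference of -0.03, with no test. The HOXB9 call depended on settings: with no filter on low counts its adjusted p was 1.58e-05, and without clone 1 it was 0.00967 with a log2 fold change of -5.64, while without clone 2 it was 0.0648 with -1.92. Over 14 alternatives the HOXB9 adjusted p ran from 1.58e-05 to 1, the latter without WT replicate 1. HOXB8 was at -8.84 without clone 1 and -3.12 without clone 2, with adjusted p from 0.0565 to 1 over 13 alternatives. CDX2, the caudal factor of the gut, was at 47.1 and 33.9 CPM in WT and 38.3, 35.3, 32.4 and 34.8 in 8q-loss.

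**Figure D4:**
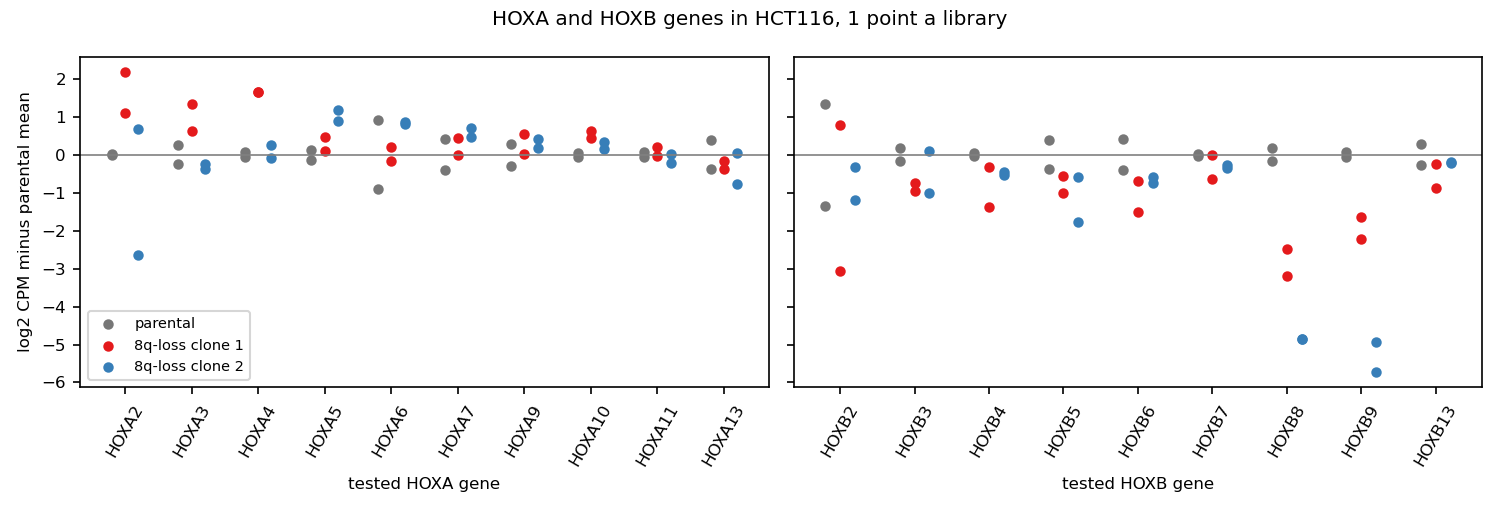
Points give log2 CPM minus the mean of the WT libraries (vertical axis) for tested HOXA and HOXB genes (horizontal axes), 1 point a library, with WT and the 2 8q-loss clones coloured. HOXB8 and HOXB9 lie far below 0 in both clones, and HOXA4 and HOXA3 stand higher in clone 1 than in clone 2.

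The 2 HCT116 clones differed in 18.5% of genes and in 3 of 27 HOX genes, HOXA3, HOXA4 and HOXB9. HOXA4 had 373 and 364 counts in clone 1 against 129 and 157 in clone 2 and 133 and 103 in WT (edgeR adjusted p = 0.0087). HOXA3, which overlaps it, had 729 and 439 counts in clone 1 against 262 and 270 in clone 2 and 369 and 222 in WT. In the same libraries the median of 7p genes stood at 0.43 and 0.40 above WT in clone 1 and at -0.01 and -0.02 in clone 2. Its part in the HOXA values was not tested. HOXA5 went the other way, with 76 and 58 counts in clone 1 and 148 and 114 in clone 2.

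In AGS, loss of 1q changed 2 of the 13 HOX genes tested, both in HOXB, where 7.55% of all genes were called, 3.38% higher and 4.17% lower. HOXB7 was at 1.89 CPM in WT, 1.16 and 1.89 in TK+ and 5.68, 3.82, 2.96, 3.29 and 4.05 in 1q-loss clones 1, 4, 6, 7 and 11. It rose by 1.26 on the log2 scale (SE 0.296, edgeR adjusted p = 0.0359). HOXB5 was at 18.6 CPM in WT, 21.7 and 20.4 in TK+ and 14.7, 9.57, 7.51, 9.95 and 14.2 in the 1q-loss clones, a fall of -0.85 (SE 0.221, adjusted p = 0.0494). Neither overlapped between groups, and each call was lost in 7 of 13 alternatives, among them those without WT, without either TK+ clone and without clone 4 or 7 (HOXB7 also without clone 1, HOXB5 also without clone 6), with adjusted p up to 0.119 for HOXB7 and 0.16 for HOXB5. All 11 HOXA genes and all 9 HOXD genes stayed at 5 counts or fewer in every AGS library.

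The AGS clones also varied among themselves, and 1 library per clone allows no test of it. HOXB4 had 6 and 11 counts in clones 6 and 7 against 49 and 59 in clones 1 and 4, 26 in clone 11 and 23 to 28 in the controls. HOXB9 ranged from 1903 counts in clone 6 to 5871 in clone 1, with 1800 to 2655 in the controls. HOXC13 had 9 counts in clone 11 and 33 to 85 in the other 4 clones. Clone 6 was thus the lowest for HOXB4 and HOXB9, and clone 11 for HOXC13.

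In A2780, cells with the TK cassette differed from WT in HOX genes although both keep the 1q gain. Of 16 tested 6 were called, all higher, against 11.2% of all 14888 genes called and 5.16% called higher. HOXB13 had 47 and 76 counts in WT and 258 and 270 in TK+, or 2.12 and 3.74 against 11.4 and 12.4 CPM, a log2 fold change of 2.03 (SE 0.224, edgeR adjusted p = 6.04e-05). The 6 1q-loss libraries had 184 to 312 counts, or 8.40 to 12.9 CPM, all above WT and overlapping TK+. The other 5 rose by less: HOXC10 was at 25.6 and 24.4 CPM in WT and 37.8 and 35.8 in TK+ (0.56, SE 0.096), and HOXB3 at 52.6 and 59.1 against 75.8 and 92.8 (0.60, SE 0.107). HOXB6 was at 61.3 and 68.1 CPM against 86.1 and 98.8 (0.52, SE 0.094), and HOXB7 at 65.4 and 58.5 against 79.9 and 82.3 (0.39, SE 0.086). HOXB5, at 38.4 and 38 CPM against 46.7 and 46.9 (0.29, SE 0.085), lost its call in 4 of 9 alternatives, among them those without WT replicate 1 (adjusted p = 0.378) or 2 (0.411), and HOXB7 without WT replicate 2 (0.278). HOXB9, the gene with the highest level, was at 333.3 and 330.4 CPM in WT and 340.9 and 328.2 in TK+. HOXB-AS3, the antisense RNA that overlaps HOXB3 to HOXB6, rose by 0.71 (SE 0.107).

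Against WT and TK+ together, the A2780 1q-loss libraries gave 0 of 17 HOX calls by edgeR, where 11.8% of all genes were called. The unadjusted p was under 0.05 for 5, and for 27.0% of all genes. DESeq2 called 3, HOXB2, HOXB9 and HOXD9. Among the 1q-loss clones HOXD9 was high in clone 5 only, at 839 and 644 counts against 3 to 16 in clones 2 and 6. HOXB2 was called without clone 5 and HOXB9 without clone 6. With WT as the only control HOXB13 and HOXB7 were called, the genes that also differed between TK+ and WT. The share of all genes called in these other fits is not given here, so their calls are not read as a result about HOX genes. HOXB2 was at 35.9 and 35.6 CPM in WT, 38.5 and 34.7 in TK+ and 41 to 64.1 (median 43.2) in 1q-loss (0.36, adjusted p = 0.083). HOXB9 was at 328.2 to 340.9 CPM in the controls and 351.4 to 459.2 (median 373.9) in 1q-loss (0.23, adjusted p = 0.0856). Neither overlapped between groups.

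Clone 5 of A2780 1q-loss had part of the HOXD cluster on, which the other 2 clones did not. A test between clones, added after the data had been seen, called 20.6% of all genes and 9 of the 22 HOX genes that passed the filter on low counts. Of the 9, HOXD3, HOXD4, HOXD8, HOXD10 and HOXA5 had at most 11 counts in any library outside clone 5, so that they passed the filter through the clone in which they were high, and the 9 are not read against that share. HOXD9 had 839 and 644 counts in clone 5 and 3 to 25 in the other 8 A2780 libraries (edgeR adjusted p = 2.19e-08). HOXD8 had 176 and 202 counts against 1 to 10, and HOXD3 161 and 142 against 0 to 11. HOXD10 had 48 and 59 counts in clone 5 and 0 in each of the other 8 libraries, and HOXD4 23 and 18 against 0 to 3. The cluster is ordered HOXD13 to HOXD1 along the chromosome, and the genes at its ends stayed near 0 in clone 5: HOXD13 had 4 and 1 counts, HOXD12 1 and 0, HOXD11 5 and 1, and HOXD1 0 and 0. The genes that were on thus form 1 run from HOXD10 to HOXD3, and the HOXD13, HOXD11 and HOXD3 windows printed above come from outside and inside that run.

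**Figure D5:**
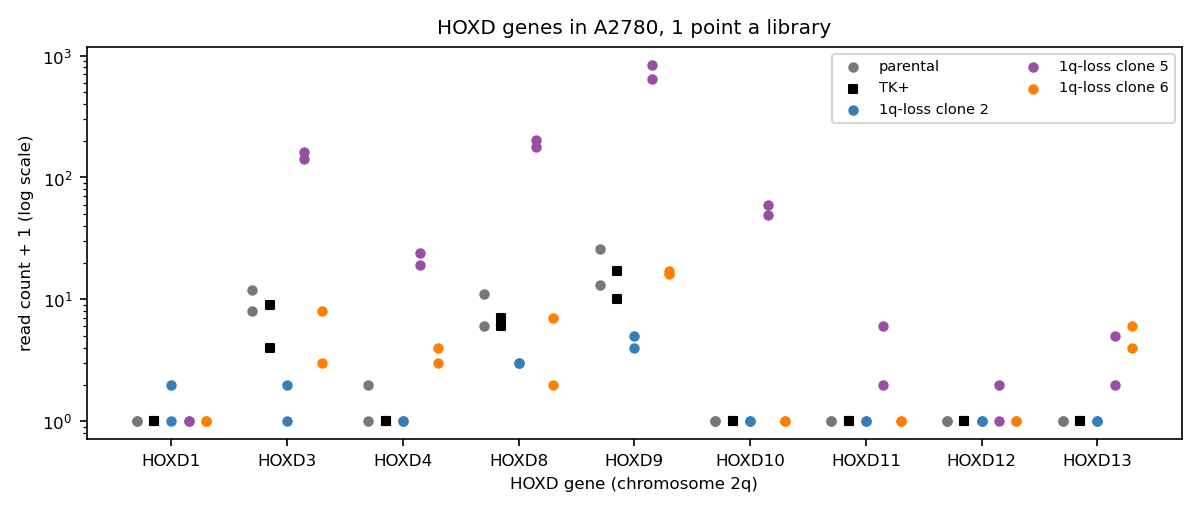
Read counts plus 1 (vertical axis, log scale) of the 9 HOXD genes (horizontal axis) in the 10 A2780 libraries, 1 point a library. The 2 clone 5 libraries stand apart from HOXD10 to HOXD3, up to 839 counts for HOXD9, and all libraries lie near 0 for HOXD1 and HOXD11 to HOXD13.

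The antisense RNAs inside the cluster followed, with 30 and 38 counts of HOXD-AS2 in clone 5 against 0 to 1 elsewhere and 22 and 36 of HOXD-AS1 against 0 to 6. The 24 genes within 2 Mb of the cluster with at least 10 counts in a library had a median difference of 0.04. No test was run on these neighbours. The nearest protein-coding neighbours that reached that count were at 0.19 for MTX2, 78 kb away, and -0.13 for KIAA1715, 90 kb away. EVX2, the homeobox gene next to HOXD13, had 0 counts in both clone 5 libraries and at most 1 in the other A2780 libraries. The 4 neighbours that differed by more than 1 on the log2 scale, named after their values were seen, were the noncoding AC017048.3, 439 kb away, with 39 to 50 counts against 0 to 2, SP9 at 2.38 (14 to 21 counts against 0 to 10), WIPF1 at 1.5 and PDE11A at -1.18. AC017048.3 reached 10 counts only in clone 5, and so entered the list through that clone. The median of 2q genes in the clone 5 libraries was at -0.02 and 0.06. Other HOX genes that differed between the A2780 clones were HOXA5 (21 and 32 counts in clone 5, 2 to 11 in the rest), HOXB3, HOXB9 and HOXC8.

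In MCF10A loss of 1q left HOX genes without a call. Of 21 tested 0 were called by edgeR and 0 by DESeq2, against 2.04% of all genes called by edgeR. An unadjusted p under 0.05 was found for 0 of them, and for 11.8% of all genes. The smallest adjusted p was 0.43. With hRas, 1q-loss against WT gave 0 of 22 by either tool, with 0.214% of all genes called. Unadjusted, 2 were under 0.05 (HOXC9 at 0.50 and HOXB2 at 0.66), as were 14.3% of all genes. hRas in WT cells gave 0 of 20 by either tool, with 1.62% of all genes called. Unadjusted, 2 were under 0.05 (HOXA11 at -0.85 and HOXB3 at -0.51), as were 14.2% of all genes. hRas in 1q-loss cells gave 0 of 20 by edgeR and 1 by DESeq2, with 1.2% of all genes called by edgeR. Unadjusted, 3 were under 0.05, as were 18.1% of all genes. The interaction of 1q loss with hRas gave 0 of 23 and 0% of 16492 genes by edgeR, 0 HOX genes at an unadjusted p under 0.05 (2.22% of all genes) and 0 by DESeq2.

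HOXC6, a gene active in the developing mammary gland, came closest to a call in MCF10A. It was at 4.77 to 8.62 CPM (median 6.56) in the 8 1q-loss libraries and 7.27 to 13.5 (median 10.5) in the 8 hRas 1q-loss libraries, 0.64 on the log2 scale (SE 0.154, edgeR adjusted p = 0.0504). It was called by DESeq2 and, with HOXA5, with the clone number as a block, and also without hRas 1q-loss clone 1 or 1q-loss clone 4. The labels do not say whether clones with the same number with and without hRas are the same clones, which that block assumes. The groups overlapped.

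The hRas 1q-loss clones differed widely, in 65.3% of all genes and 10 of 22 HOX genes, against 8.51% of genes and 1 of 21 HOX genes (HOXB6) without hRas. Among the 10 were HOXA3, HOXA5, HOXA7, HOXA9, HOXB4, HOXB6, HOXC6, HOXC8 and HOXC13. HOXA5 was at 17.5 and 20.6 CPM in clone 3, 8.18 and 8.31 in clone 4, 11.7 and 10.4 in clone 1 and 10.9 and 12.2 in clone 2, with 19.1 and 19.6 in hRas WT. HOXA7 had 13 and 18 counts in clone 4 and at most 2 in the other clones. It passed the filter through clone 4, so the 10 are not read against the share of all genes. HOXB6 had 90 and 85 counts in clone 4 of the cells without hRas, and 117 to 222 in clones 1 to 3. The highest clone was 3 for 5 of the 10 genes.

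HOX cofactors and regulators were called most often in A2058 1q-loss, where 49.6% of all genes were called too. Of the 8 cofactors tested there 1 rose and 4 fell (62.5%): PKNOX2 fell from 11.8 to 19.6 CPM in WT to at most 0.483 (-6.19), PBX2 was at -0.52, PBX3 at -0.82 and MEIS2 at -0.53, and MEIS3 rose by 1.28. PKNOX2 was also lower in A2058 8q-loss (-1.82, SE 0.372, adjusted p = 0.0376). Of 19 Polycomb genes 3 rose and 6 fell in A2058 1q-loss (47.4%), a share near that of all genes, among them PHC2 at 0.54 and CBX2 at -0.72. In AGS 1q-loss, where 7.55% of all genes were called, 0 rose and 4 of the 19 fell (21.1%; BMI1 at -0.62, CBX2 at -0.45, PHC2 at -0.51 and PHC3 at -0.45). Of 16 trithorax and MLL genes 3 rose and 4 fell in A2058 1q-loss (43.8%), also near the share of all genes, with ASH2L at -0.69. In A2780 1q-loss 0 rose and 4 of 13 fell (30.8%, against 11.8% of all genes), with KDM6A at -0.88. Of these 4, ASH1L and RBBP5 lie on 1q, the lost arm, where 315 of 647 tested genes were called lower. ASH1L, a histone methyltransferase gene on 1q, was called lower in AGS (-0.95), A2780 (-0.74) and MCF10A (-0.59) 1q-loss. The Polycomb gene RNF2, also on 1q, was called lower in A2058 (-0.31) and A2780 (-0.53) 1q-loss. RBBP5, a 1q gene of the MLL complexes, was called lower in all 5 1q-loss comparisons, at -0.50 in A2058, -0.62 in AGS, -0.40 in A2780, -0.53 in MCF10A and -0.69 with hRas. In the retinoic acid pathway 4 of 8 tested genes were called there, 2 in each direction: the synthesis gene ALDH1A1 (-2.63) and the receptor RXRG (-2.94, a 1q gene) fell in A2058 1q-loss, and the degrading enzyme CYP26B1 rose by 2.85 and the receptor RARG by 0.61. In A2780 TK+ the retinoic acid receptor RARB fell by 2.93, the Polycomb gene PHF19 fell by 0.46 and AFF1 rose by 0.65. With hRas in MCF10A WT cells the synthesis gene ALDH1A3 fell by 1.03, and CBX6 (0.73) and PSIP1 (0.34) rose. No gene of these lists was called in A2058 7p-loss or HCT116 8q-loss, and none in MCF10A hRas in 1q-loss.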

How the data were processed

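RNA from 62 libraries was sequenced after poly-T selection, per the labels' protocols. The deposited tables hold raw read counts per gene, 1 table per library, which the authors made with HISAT2 2.0.5 and featureCounts 1.5.0-p3 on hg38, per the submitters' processing notes. The A2780 tables carry GRCh37 coordinates and list 48162 genes, against 58735 with GRCh38 coordinates in the others. The HOX genes and the gene lists were chosen with earlier results of these data known. A HOX gene and a cofactor gene are counted in the totals but not reported by name here.

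Low counts were removed with filterByExpr (edgeR 4.0.16, defaults of 10 reads per library and 15 in total). Library sizes were scaled by TMM, and the quasi-likelihood test was run in R 4.3.3. P-values were two-sided and adjusted over all genes tested in a comparison. Each loss group was set against libraries of its line that keep the gain, WT and TK+ together in AGS and A2780. SE was taken as the absolute log2 fold change over the root of the F statistic. CPM and RPKM use TMM-scaled library sizes and the gene lengths in the files, and log2 levels a prior count of 2. Values are given for the tested HOXA genes in A2058 7p-loss, every called HOX gene, the highest genes per line and up to 4 listed regulators per comparison, those with the smallest adjusted p. Further regulators named were chosen after their values were seen. The test against 7p subtracted the median of the other tested 7p genes. The test between clones and its alternatives were added after the data had been seen. On simulated data the tests recovered 52% of genes changed by a factor of 2 in the A2058 7p-loss design (15305 genes), and 75% between A2780 clones (15522 genes). The MCF10A 1q-loss numbers pair with WT, as all correlations of deviations were 0.144 to 0.268. Alternatives were DESeq2 1.42.0, other size factors and filters, summed clones, other control libraries, replicate blocks and leaving out each library or clone.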

Additional observations from a re-analysis of the deposited data

Results flagged for a closer look

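In the 4 A2058 WT libraries HOXB5 was at 6.889 CPM in replicate 4, with the others between 8.648 and 9.021, so that its gap to the nearest library took 0.842 of the whole range, above Dixon's critical value for a group of 4. HOXB13 was at 13.93 CPM in replicate 3, with the others between 16.78 and 17.04, a gap of 0.924 of the range. Such a gap is reached by chance in about 1 of 20 groups, and these 2 were found among 44 pairs of a gene and a group. Both genes are called lower in A2058 1q-loss, and both stray libraries lie toward the 1q-loss values.

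The log2 fold change of HOXB13 in 1q-loss had opposite signs in different lines: it was -1.246 in A2058, where it was called, and 0.471 in A2780, where it was not (edgeR adjusted p = 0.513), a difference of -1.717 that was not tested. In A2780 the controls are split, with WT at 2.12 and 3.74 CPM and TK+ at 11.4 and 12.4 CPM, beside 8.40 to 12.9 CPM in 1q-loss, so the 1q-loss libraries lie above WT and not above TK+ as a group.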

How the results depend on the processing

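The cause of each change below was not tested, and in fits that leave out libraries fewer samples enter. Counts of detected HOX genes kept within 1.5 times the reported ones, except that AGS had 6 at a minimum of 50 counts. In A2058 7p-loss the 1 called HOX gene became 2 with DESeq2, 0 without a filter, with summed clones, with WT replicates 1 and 2 only, with WT replicates 3 and 4 only and with the replicate number as a block, and 0 to 4 when a library or clone was left out (4 without clone 1). The share of all genes called there, 0.908%, was 3.43% with DESeq2, 0.00653% with the block, 0.357% with summed clones and 5.96% without clone 1. In 1q-loss it was 26.0% without a filter, in place of 49.6%. The HOXA median in 7p-loss was -0.152 with WT replicates 3 and 4 only and ran from -0.366 to -0.033 when a library or clone was left out, the last without clone 1, and the HOXA genes called against the arm were 1 without clone 1 or clone 3. HOXA2, at -0.045, turned to 0.122 with WT replicates 3 and 4 only and ran from -0.508 to 0.195 when a library or clone was left out. HOXA3, at -0.053, turned to 0.014 and ran from -0.21 to 0.058.

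HCT116 8q-loss gave 1 HOX call without a filter and 1 without clone 1. AGS 1q-loss gave 0 with TK+ as the only control and 0 to 2 when a library was left out. DESeq2 called 14.9% of all genes in AGS in place of 7.55%. A2780 1q-loss gave 3 with DESeq2, 2 with WT as the only control and 0 to 1 when a library or clone was left out. The share of all genes called in those A2780 fits is not given here. MCF10A hRas in 1q-loss gave 1 with DESeq2, 1 at a mean CPM of at least 1, 2 with the clone number as a block and 0 to 1 when a library or clone was left out. Between clones, the replicate block gave 14, 4 and 7 HOX genes in A2058 7p-loss, 1q-loss and 8q-loss, with 49.5%, 16% and 19.1% of all genes. In A2058 1q-loss the block gave 10 calls in place of 12, in A2780 TK+ 6, and 0 in the others where such a fit was made, with a call of 0.258% of all genes in A2058 8q-loss and 2.16% in MCF10A 1q-loss, where the numbers pair. The block removed the HOXB7 call in 7p-loss and those of HOXA10, HOXA13 and HOXB3 in 1q-loss, where it added HOXB4. A2058 numbers do not pair loss clones with WT. Depth limits genes such as HOXD11, at about 1 CPM, and those that did not pass the filter on low counts, which the main fits did not test. P-values over libraries overstate the number of independent clones.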
